A study of Mus musculus with 20 samples.

Results

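The liver makes bile acids from cholesterol, conjugates them and pumps them across the canalicular membrane of the hepatocyte into bile. The genes described here are the 33 that encode this route: enzymes of synthesis and conjugation, the receptors that set their level, the carriers that take bile acids up from blood and the pumps that export them to bile or back to blood. They were picked out on the array by name, through its symbols and synonyms, from a list drawn up with earlier results of these data known. All 33 were found, among 34741 gene names on the array and 21998 genes that passed a filter on dim probes, and each of the 33 was well above background on all 20 arrays. Of the 40 probes for these genes that passed the filter, the brightest was used for each gene.

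Transcript levels were measured with 1-colour microarrays in snap-frozen liver pieces from 20 mice, 1 array per animal, in 4 groups of 5. Null animals lacked estrogen receptor alpha (ERa-/-) and received estradiol (E2, the main circulating estrogen) or placebo. Wild-type animals (ERa+/+), bred from the parents of the nulls, received E2 or placebo. All 20 were ovariectomized at 4 weeks of age, so that ovarian estrogen was removed in the controls too, and all were gavaged once at 9 weeks, with 1 mg/kg of E2 or with the castor oil and 5% ethanol that served as placebo. Livers were taken 4 hours later under ketamine and xylazine. The deleted stretch of the receptor gene is not described, and the labels name no promoter or cell type that would limit the loss to hepatocytes. The design addresses how liver transcripts respond to E2 and whether that response depends on the receptor.

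Synthesis starts with the hydroxylation of cholesterol by Cyp7a1 in the classic pathway, or by Cyp27a1 in an alternative one, and Cyp8b1 then decides how much of the product becomes cholic acid. Bile acids limit their own synthesis: they activate the nuclear receptor FXR (Nr1h4), which induces the repressor SHP (Nr0b2), and in the gut they induce FGF15, which acts on the liver through Fgfr4 and its partner Klb. Estrogens at high doses are known to slow bile flow in rodents, and bile salt carriers and Cyp7a1 have been studied in that setting.

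Levels are log2 intensities relative to the 75th percentile of the array, so that 0 is the 75th percentile and a difference of 1 is a doubling. Array brightness differs from probe to probe, so levels of different genes are not compared. Between 51.62% and 70.05% of spots per array were well above background, and arrays of the same group correlated at 0.981 to 0.995 across genes. The targeted gene Esr1, which encodes the receptor, lay between -2.16 and -0.93 in nulls and between -0.04 and 1.02 in wild types, with no overlap (log2 difference -2.12 ± 0.16, SE, limma adjusted p = 1.25e-06). Its probe, the brightest of 3 that passed the filter, was well above background on all 20 arrays, so some Esr1 signal remained in nulls. Hepatocyte markers summed to 6982 to 9228 times the 75th percentile in nulls and to 6924 to 8525 in wild types, and all 10 were well above background on every array. In a piece of whole liver, fewer cells of a type and less RNA per cell cannot be told apart.

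How the carriers below are read depends on 2 pairs of probes, and their sequences are shown for that reason. Both Slco2b1 probes lie on the minus strand of mm9, at chr7:106806923-106806982 and chr7:106806901-106806960, and the 38 bases they share are in capitals.
Slco2b1, brighter probe: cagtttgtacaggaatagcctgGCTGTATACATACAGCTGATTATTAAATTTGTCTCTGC
Slco2b1, other probe: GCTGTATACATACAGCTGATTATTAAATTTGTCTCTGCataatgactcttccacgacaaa
Because they overlap, the 2 probes are near repeats of the same measurement (r = 0.943 across the 20 livers) and not independent evidence. The 2 Slc10a1 probes, on the minus strand at chr12:82056539-82056598 and chr12:82061470-82061529, do not overlap. Capitals mark bases that lie in a stretch of 16 bases found in a probe or a promoter window of another gene.
Slc10a1, brighter probe: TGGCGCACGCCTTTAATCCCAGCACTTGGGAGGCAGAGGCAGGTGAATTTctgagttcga
Slc10a1, other probe: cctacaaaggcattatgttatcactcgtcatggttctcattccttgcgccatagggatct
In the brighter Slc10a1 probe 50 of 60 bases are so marked. It shared a stretch of 16 bases, on either strand, with 46 of 32851 RefSeq promoter windows (GRCm38.p6) and with 15 probes of other genes, against at most 2 windows and 1 probe for any other of the 40 probes. The readings of the 2 Slc10a1 probes did not move together across livers (r = -0.215), and the values of Slc10a1 are therefore given for both.

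The first comparison set null livers against wild-type livers, averaged over E2 and placebo, with 10 animals on each side. Slco2b1, an organic anion carrier of the sinusoidal membrane, was the member that rose in nulls, by 1.20-fold. The enzyme genes Akr1d1, Cyp8b1 and Slc27a5 and the exporter gene Abcg2 were higher in nulls at an adjusted p between 0.0589 and 0.138 and did not pass. With limma, 1 of the 33 genes had an adjusted p under 0.05, higher in nulls, while 0.696% of all genes tested were called in this comparison and 0.409% were called higher. The genotypes did not overlap for 0 of 33 members and for 0.0683% of all genes. At an unadjusted p under 0.05 there were 8 members, all higher in nulls (24.2% of the 33), against 12.9% of all genes in either direction and 8.01% higher. The median log2 difference of the 33 genes was 0.06, with 24 above 0, and that of all genes was 0.00. The authors' deposited log2 values gave 19 of 33 above 0 and quantile normalization 18.

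Slco2b1 read 4.86, 4.89, 4.97, 4.99 and 5.17 in null E2 livers and 4.83, 4.86, 4.96, 5.03 and 5.09 in null placebo livers, against 4.63, 4.64, 4.68, 4.74 and 4.88 in wild-type E2 livers and 4.53, 4.61, 4.64, 4.78 and 4.83 in wild-type placebo livers. Most null livers lay above most wild-type livers, and the ranges met at the edges. The log2 difference was 0.27 ± 0.06 (SE, 95% interval 0.14 to 0.39, limma adjusted p = 0.0405). It had the same size under E2 (0.26 ± 0.08, adjusted p = 0.292) and under placebo (0.27 ± 0.08, adjusted p = 0.255), comparisons that share no animal and did not pass on their own. The overlapping probe gave 0.26. Within the 4 slides the difference was 0.12, 0.33, 0.43 and 0.21, positive in each. The adjusted p was close to the threshold: with any 1 of 12 arrays left out it lay between 0.0515 and 0.0889, namely null E2 replicates 2, 4 and 5, null placebo replicates 2, 4 and 5, wild-type E2 replicates 1, 2, 3 and 5 and wild-type placebo replicates 3 and 4, while the difference itself stayed between 0.24 and 0.29. The call also ended under median scaling, quantile normalization, the authors' deposited values, no detection filter, slide as a block and without the animals numbered below 750 (adjusted p = 0.0937 to 0.503, differences of 0.22 to 0.32). Those animals were null placebo replicates 1, 2 and 3, null E2 replicates 1 and 2 and wild-type E2 replicates 1 and 2. None was a wild-type placebo animal, so that setting left smaller and unequal groups. Whether a change there comes from the animals or from group size was not tested.

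Among the enzymes of synthesis the fitted differences were larger and the spread wider. Cyp8b1, the sterol hydroxylase that directs synthesis to cholic acid (probe at chr9:121824595-121824654), read 3.03, 3.23, 3.39, 3.68 and 4.29 in null E2 livers and 2.82, 3.13, 3.20, 3.28 and 4.35 in null placebo livers, against 2.06, 2.47, 2.85, 2.86 and 2.92 in wild-type E2 livers and 1.76, 2.32, 2.61, 2.90 and 3.68 in wild-type placebo livers. Under E2 every null liver lay above every wild-type liver, while under placebo the groups overlapped. The log2 difference over both treatments was 0.79 ± 0.23 (95% interval 0.31 to 1.28, limma adjusted p = 0.116), the largest among the 33 genes. Without wild-type placebo replicate 5, the wild-type liver with the highest level, it was 0.92 and passed (adjusted p = 0.0411). In 32 of 33 alternatives Cyp8b1 did not pass, with a limma adjusted p of up to 0.323.

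Akr1d1, the reductase that shapes the steroid ring of bile acids (chr6:37518113-37518172), read 1.97, 2.15, 2.21, 2.46 and 2.55 in null E2 livers and 2.12, 2.20, 2.21, 2.22 and 2.40 in null placebo livers, against 1.41, 1.62, 1.74, 1.92 and 2.35 in wild-type E2 livers and 1.40, 1.46, 1.79, 1.90 and 2.09 in wild-type placebo livers. Under placebo the genotypes did not overlap, and under E2 1 wild-type liver reached into the null range. The log2 difference of 0.48 ± 0.12 just missed the threshold (adjusted p = 0.0589). It passed without null E2 replicate 3 (0.52, adjusted p = 0.0432), without wild-type E2 replicate 3 (0.55, adjusted p = 0.0161) or without wild-type placebo replicate 5 (0.53, adjusted p = 0.0312). In 28 of 33 alternatives Akr1d1 did not pass, with a limma adjusted p of up to 0.432.

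Cyp7a1, the rate-limiting enzyme of the classic pathway (chr4:6193456-6193515), was spread widely inside each group. Its levels were 4.45, 4.72, 4.93, 5.13 and 5.65 in null E2 livers and 4.26, 4.35, 4.46, 5.01 and 5.64 in null placebo livers, against 4.12, 4.19, 4.26, 4.64 and 4.96 in wild-type E2 livers and 3.32, 3.38, 4.50, 4.58 and 4.80 in wild-type placebo livers. The genotypes overlapped, and 2 wild-type placebo livers lay far below all others. The difference of 0.59 ± 0.23 (95% interval 0.11 to 1.06) did not pass (adjusted p = 0.266). Cyp7a1 follows the time of day, and Dbp, a clock output gene, differed between genotypes by 0.18 ± 0.17 (adjusted p = 0.747), with 0 of 11 measured clock genes called and 9 of them above 0. The part of clock phase in the Cyp7a1 difference was not tested.

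The remaining synthesis genes showed smaller differences. Cyp27a1, the mitochondrial sterol hydroxylase, read 2.48 to 3.59 in nulls and 3.09 to 3.55 in wild types (log2 difference -0.08 ± 0.11, adjusted p = 0.85). Cyp39a1, a hydroxylase of oxysterols, lay at -0.16 ± 0.12 and Cyp2c70, which makes muricholic acids in mice, at -0.06 ± 0.13. Hsd3b7, the dehydrogenase of the steroid ring, differed by 0.12, the side-chain enzymes Amacr, Acox2 and Hsd17b4 by 0.10, 0.11 and 0.03, and Scp2, which encodes the thiolase of the same shortening, by 0.06. Slc27a5, the ligase that activates bile acids for conjugation, was 0.19 ± 0.06 higher in nulls without passing (9.18 to 9.57 in nulls, 8.93 to 9.25 in wild types, adjusted p = 0.138), and its other probe also gave 0.19. Baat, which joins bile acids to taurine, differed by 0.16 ± 0.15.

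Among the exporters of the canalicular membrane, the bile salt pump gene Abcb11 read 6.10 to 6.58 in nulls and 5.93 to 6.61 in wild types (0.02 ± 0.07, adjusted p = 0.953). Abcb4, the phosphatidylcholine floppase, differed by -0.09 ± 0.07 (adjusted p = 0.683) and Abcc2, the pump for conjugated organic anions, by 0.10 ± 0.06 (adjusted p = 0.591). For these 3 pumps the 95% interval of the genotype difference stayed within 1.5-fold, as it did for 26 of the 33 genes. Abcg2, the breast cancer resistance protein gene, stood higher in nulls at 3.88, 4.03, 4.16, 4.17 and 4.46 with E2 and 4.01, 4.25, 4.27, 4.27 and 4.56 with placebo, against 3.75, 3.95, 4.00, 4.08 and 4.10 in wild-type E2 livers and 3.69, 3.70, 3.83, 3.91 and 3.99 in wild-type placebo livers. The genotypes did not overlap under placebo and overlapped under E2. Its log2 difference was 0.31 ± 0.08 over both treatments (adjusted p = 0.0783, and 0.0499 without null placebo replicate 3) and 0.45 ± 0.11 under placebo (adjusted p = 0.171). Over both treatments Abcg2 did not pass in 32 of 33 alternatives, with a limma adjusted p of up to 0.559. Abcb1a, a drug efflux pump gene, differed by 0.44 ± 0.16 (adjusted p = 0.229), and the flippase gene Atp8b1 by -0.07 ± 0.12.

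Among the uptake carriers, Slco1a4, an organic anion carrier, read 3.16 to 4.18 in nulls and 2.57 to 4.17 in wild types (0.46 ± 0.18, adjusted p = 0.279), and Slco1b2, the main liver organic anion carrier of rodents, differed by 0.03 ± 0.10. For Slc10a1, the sodium-dependent bile salt importer, the brighter probe gave 0.03 ± 0.07 (adjusted p = 0.903). The other probe had means of 5.91 ± 0.24 in null E2 livers, 5.85 ± 0.15 in null placebo livers, 5.66 ± 0.10 in wild-type E2 livers and 5.60 ± 0.21 in wild-type placebo livers (SD, n = 5 each). With that probe in the fit the difference was 0.25 ± 0.08, which did not pass (adjusted p = 0.164). Its unadjusted limma p was 0.00645 over both treatments, 0.0422 under placebo and 0.0441 under E2. The counts of members at an unadjusted p under 0.05 use the brighter probe and so leave Slc10a1 out. Of the carriers that return bile acids to blood, Abcc3 differed by 0.04 ± 0.08 and Abcc4 by -0.08 ± 0.13. Of the receptors and regulators, Nr1h4 differed by -0.01 ± 0.07, Fgfr4 by 0.01 ± 0.08, Klb by 0.09 ± 0.10 and Gpbar1, a membrane receptor for bile acids, by -0.06 ± 0.07. The average for Nr0b2, 0.09 ± 0.27 (95% interval -0.48 to 0.65), joined -0.48 under E2 and 0.65 under placebo, and neither passed (adjusted p = 0.716 and 0.591).

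Markers of cell types were read beside the 33 genes. In the same comparison 9 of 10 hepatocyte markers lay above 0 (median 0.04), while 0 of 10 sinusoidal endothelial markers (median -0.15), 4 of 10 stellate cell markers (median -0.19), 1 of 10 Kupffer cell markers (median -0.07) and 5 of 9 cholangiocyte markers (median 0.02) did. None of these markers was called. The average for cholangiocyte markers joined 8 of 9 above 0 under placebo (median 0.27) and 4 of 9 under E2 (median -0.07), also with 0 called. Sinusoidal markers summed to 42.66 to 99.85 times the 75th percentile in nulls and to 51.91 to 100.3 in wild types, and stellate markers to 119.3 to 208.6 in nulls and 131.6 to 223.2 in wild types. The part of cell makeup in the genotype differences was not tested. Alas2 among 4 red cell genes and Cyp4a12a among 9 male-biased liver genes were called higher in nulls, and 0 of 9 female-biased genes and 0 of 3 intestinal markers were called. Alas2 and Cyp4a12a are named because they were called, a choice made after their values were seen.

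**Figure D1:**
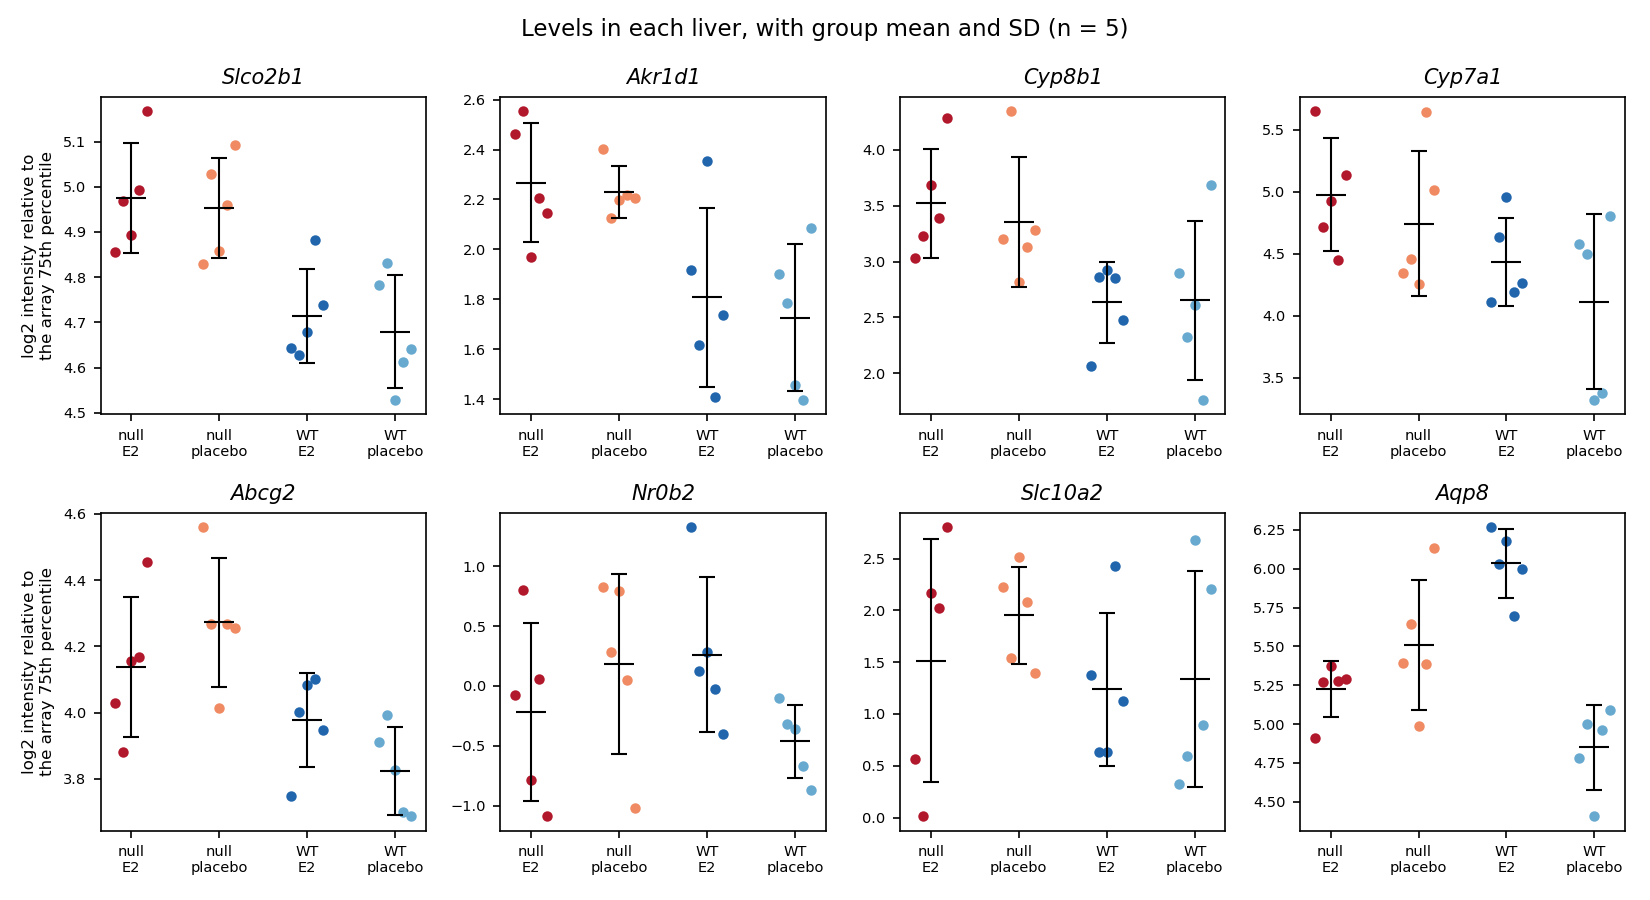
Levels of 7 members and of Aqp8 in each liver (log2 intensity relative to the 75th percentile of the array), with 1 panel per gene, 1 point per animal and the group mean with SD (n = 5). Slco2b1 lies higher in nulls with ranges that meet at the edges, Cyp8b1 and Akr1d1 separate the genotypes in only 1 treatment each, and the 5 wild-type E2 livers of Aqp8 all lie above the 5 wild-type placebo livers.

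Taken by treatment, the genotype comparison called none of the 33 genes with limma. Under E2, 0 of 33 passed, with 0.464% of all genes called and 0.0773% called higher in nulls. At an unadjusted p under 0.05 there were 5 members, all higher in nulls (15.2%, against 9.63% of all genes in either direction and 5.41% higher). Under placebo, 0 of 33 passed, with 0.0727% of all genes called, 0.0273% higher and 0.0455% lower in nulls. At an unadjusted p under 0.05 there were 10 members (30.3%, against 10.1% of all genes), 8 of them higher in nulls, against 6.36% of all genes higher. The lowest adjusted p-values were 0.292 for Slco2b1 under E2 and 0.171 for Abcg2 under placebo. The groups did not overlap for 1 member under E2, Cyp8b1 (0.89 ± 0.33, adjusted p = 0.411), against 2.5% of all genes, and for 2 members under placebo, Abcg2 and Akr1d1, against 1.85% of all genes. Cyp39a1 and Abcb4 were the 2 on the lower side under placebo. Cyp39a1 read 4.17, 4.33, 4.40, 4.81 and 5.12 in null placebo livers, against 4.77, 4.94, 5.01, 5.01 and 5.30 in wild-type placebo livers, with 3 null livers below every wild-type one (-0.44 ± 0.17, adjusted p = 0.370).

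The effect of E2 in wild-type livers was the next question. None of the 33 genes passed with limma at 4 hours, while 0.318% of all genes were called, 0.3% higher and 0.0182% lower with E2. At an unadjusted p under 0.05 there were 4 members (12.1%, against 8.28% of all genes): Abcc4 and Acox2 higher and Cyp39a1 and Fgfr4 lower with E2. This comparison, genotype under placebo and the difference between the E2 effects all use the same 5 wild-type placebo livers and are not independent. Cyp39a1 stood at -0.43 here and -0.44 for genotype under placebo, and Acox2 at 0.26 in both. The median log2 change of the 33 genes was -0.02, with 14 above 0, and that of all genes was 0.00. Scaling on the array median gave all genes a median of -0.22, left 5 of the 33 above 0 and put Fgfr4 at -0.51 and Cyp39a1 at -0.66. For 25 of the 33 genes the 95% interval of the change lay within 1.5-fold in either direction.

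Abcc4, which exports bile acids to blood, had the lowest adjusted p (probe at chr14:118882104-118882163). Its levels were -1.40, -1.21, -0.98, -0.98 and -0.39 in wild-type E2 livers, against -1.74, -1.69, -1.51, -1.44 and -1.35 in wild-type placebo livers. The groups overlapped only at -1.40 and -1.35. The change was 0.55 ± 0.19 (95% interval 0.16 to 0.94, adjusted p = 0.419), and 0.33 under median scaling and 0.35 without the animals numbered below 750.

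Fgfr4, the receptor through which FGF15 acts on hepatocytes (chr13:55270033-55270092), read 3.34, 3.37, 3.40, 3.52 and 3.55 in wild-type E2 livers, against 3.63, 3.67, 3.68, 3.78 and 3.87 in wild-type placebo livers. It was the member whose groups did not overlap, as was the case for 1.51% of all genes. The change was -0.29 ± 0.11 (adjusted p = 0.505), its other probe gave -0.36, and within the 3 slides that held both groups it was -0.41, -0.32 and -0.29. Klb, its partner, did not pass (-0.18 ± 0.14, adjusted p = 0.756).

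Nr0b2, the repressor SHP (chr4:133109694-133109753), had the largest fitted change and a wide spread. It read -0.40, -0.02, 0.12, 0.28 and 1.32 in wild-type E2 livers, against -0.87, -0.67, -0.36, -0.31 and -0.10 in wild-type placebo livers. Above every placebo liver lay 4 E2 livers, and 1 of these stood far above the rest. The log2 change was 0.72 ± 0.38 (95% interval -0.07 to 1.52, adjusted p = 0.633). It was 0.46 without wild-type E2 replicate 1, the highest liver, 0.42 without the animals numbered below 750 and 0.34 with a block for those animals.

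Cyp39a1 read 4.29, 4.41, 4.60, 4.61 and 4.95 with E2 in wild types, against 4.77, 4.94, 5.01, 5.01 and 5.30 with placebo, a change of -0.43 ± 0.17 that did not pass (adjusted p = 0.506). Acox2 changed by 0.26 ± 0.12 (adjusted p = 0.588). The enzymes at the head of the pathway gave changes within their errors: 0.32 ± 0.32 for Cyp7a1 (adjusted p = 0.823), -0.02 ± 0.33 for Cyp8b1 (adjusted p = 0.990) and -0.02 ± 0.15 for Cyp27a1 (adjusted p = 0.984). The 95% intervals were wide for Cyp7a1 (-0.36 to 0.99) and Cyp8b1 (-0.71 to 0.67) at 5 animals per group, and the Cyp7a1 change was 0.12 or 0.13 without wild-type placebo replicate 3 or 4 and 0.09 under median scaling. The canalicular pumps were measured more tightly, at -0.18 ± 0.10 for Abcb11 (95% interval -0.39 to 0.03), -0.14 ± 0.10 for Abcb4 and -0.15 ± 0.09 for Abcc2 (adjusted p = 0.649, 0.710 and 0.681). Nr1h4 differed by -0.16 ± 0.09 (adjusted p = 0.661). Slc10a1 gave -0.03 ± 0.10 by its brighter probe and 0.06 ± 0.12 by the other (adjusted p = 0.960 and 0.923). In the same comparison all 10 Kupffer cell markers (median 0.27), all 10 sinusoidal endothelial markers (median 0.14) and all 4 red cell genes (median 0.52) lay above 0 and 3 of 10 hepatocyte markers did, with 0 called. Of stellate cell markers 5 of 10 lay above 0 (median 0.01), and of cholangiocyte markers 5 of 9 (median 0.08). Kupffer markers summed to 63.23 to 178.3 times the 75th percentile in wild-type E2 livers and 56.84 to 106.3 in wild-type placebo livers, and their part in the E2 differences was not tested.

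**Figure D2:**
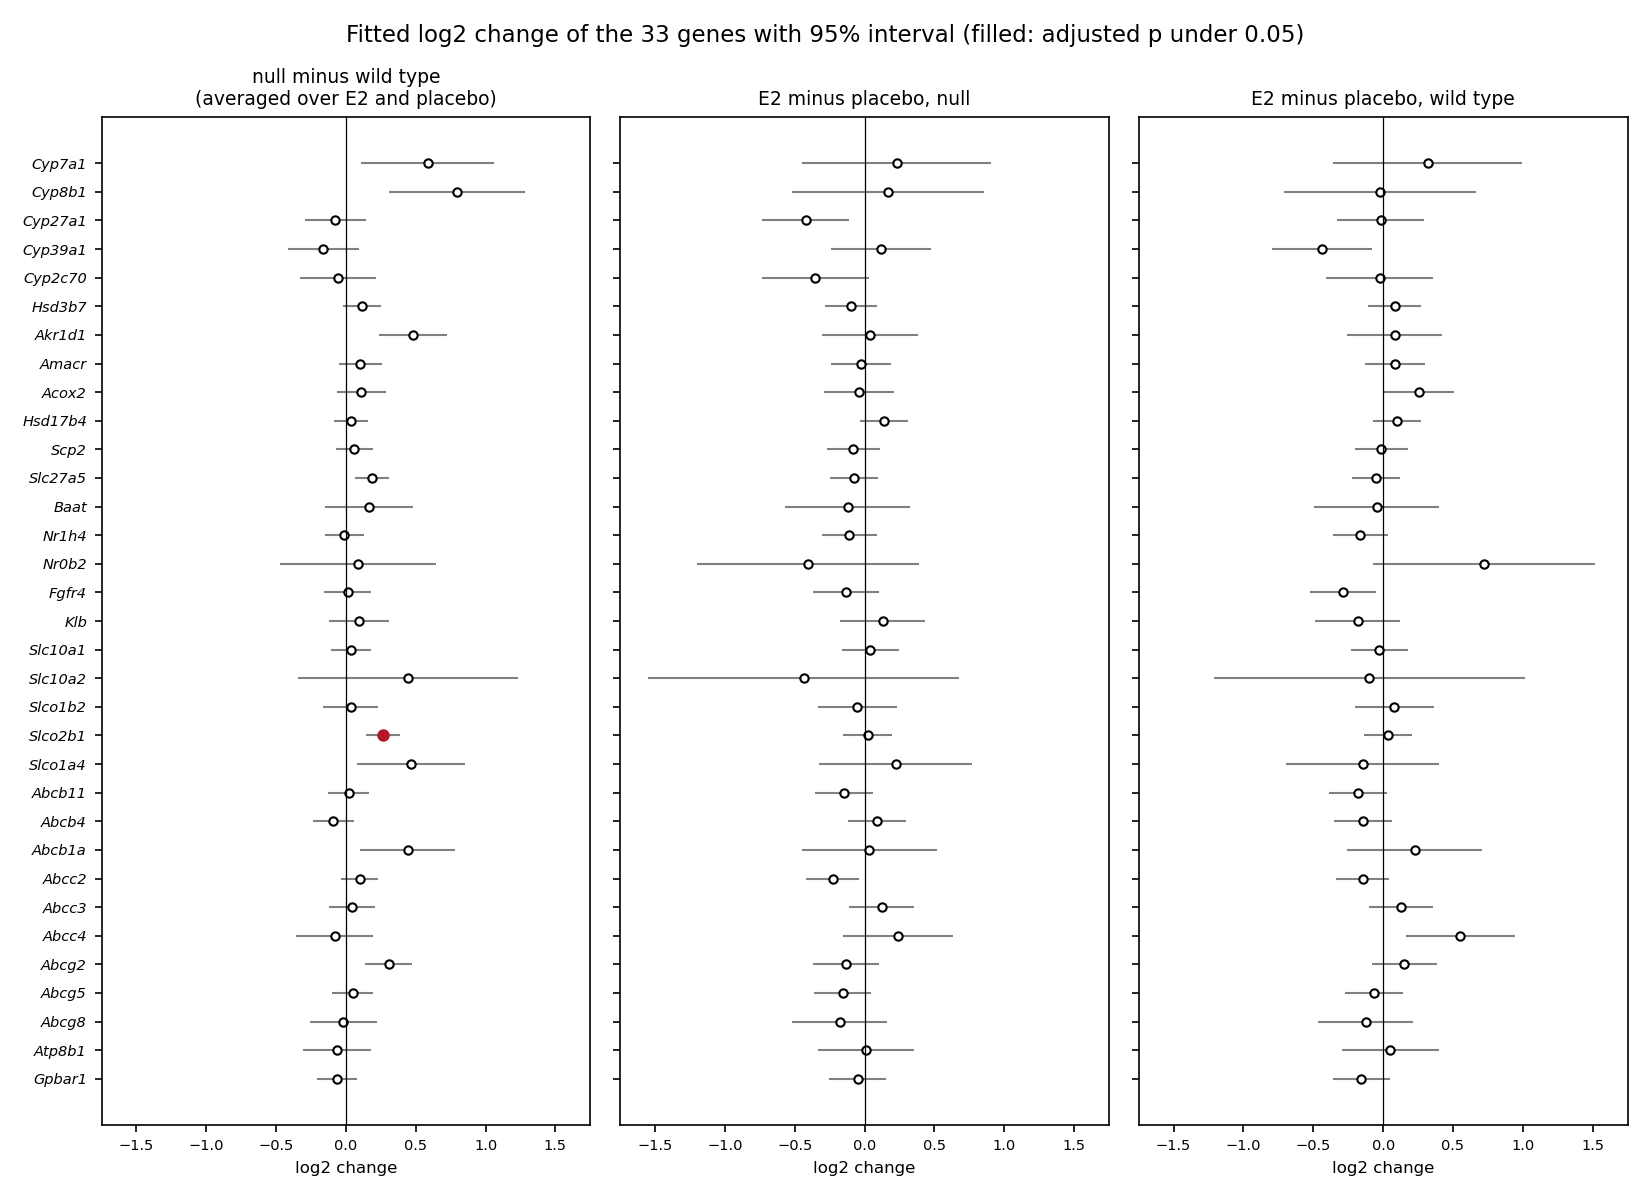
Fitted log2 change with its 95% interval for each of the 33 genes, null minus wild type over both treatments (left), E2 minus placebo in nulls (middle) and E2 minus placebo in wild types (right). A filled point marks an adjusted p under 0.05, and Slco2b1 in the left panel is the filled one, at 0.27. Slc10a1 is drawn by its brighter probe, most of whose bases also occur in sequences of other genes.

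In null livers E2 called none of the 33 genes with limma, and 0.00455% of all genes were called. The groups did not overlap for 0 of 33 members and for 0.81% of all genes. At an unadjusted p under 0.05 there were 2 members, both lower with E2 (6.06%, against 6.06% of all genes). Cyp27a1 read 2.48, 2.88, 3.03, 3.22 and 3.55 in null E2 livers, against 3.31, 3.35, 3.47, 3.55 and 3.59 in null placebo livers, with 4 E2 livers below every placebo liver (-0.42 ± 0.15, adjusted p = 0.818). Without the animals numbered below 750 its difference was -0.14, and that of Cyp2c70 was -0.09. Abcc2 lay between 3.85 and 4.24 with E2 and between 4.14 and 4.55 with placebo (-0.23 ± 0.09, adjusted p = 0.818). Slc10a2 (-0.44 ± 0.53), Nr0b2 (-0.40 ± 0.38), Cyp2c70 (-0.35 ± 0.18) and Abcc4 (0.24 ± 0.19) had the other large fitted changes, at adjusted p-values between 0.824 and 0.951. In 25 of the 33 genes the 95% interval lay within 1.5-fold. With E2 in nulls all 10 Kupffer cell markers (median 0.18) and 7 of 10 sinusoidal endothelial markers (median 0.16) lay above 0. The same held for 0 of 10 hepatocyte, 1 of 10 stellate cell and 1 of 9 cholangiocyte markers (median -0.31) and 1 of 4 red cell genes. None was called, and the part of cell makeup in these differences was not tested.

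Whether the E2 effect depended on the receptor was tested as the difference between the effects, wild type minus null. None of the 33 genes passed with limma, and 0.164% of all genes did, 0.00909% with a lower effect in wild types. There were 2 members at an unadjusted p under 0.05 (6.06%, against 7.39% of all genes). For Nr0b2 the null E2 livers read -1.09, -0.78, -0.08, 0.06 and 0.80 and the null placebo livers -1.02, 0.05, 0.28, 0.80 and 0.83, so the groups overlapped over nearly their whole range. The difference between its effects was 1.13 ± 0.54 (95% interval 0.00 to 2.25, adjusted p = 0.675), and 0.53 without the animals numbered below 750 or 0.56 with a block for them. For Cyp39a1 it was -0.55 ± 0.24 (adjusted p = 0.654). Cyp27a1 (0.40 ± 0.21), Slco1a4 (-0.37 ± 0.37) and Slc10a2 (0.34 ± 0.75) were the next in size, and the interval lay within 1.5-fold for 19 of the 33 genes.

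Further genes of the pathway were looked at as lists. Of 22 other enzymes of bile acid and oxysterol metabolism and their partners, all measured, 0 were called in any of the 6 comparisons, and of 18 regulators, 15 of them measured, 0 were called. Of 29 genes of other carriers, canalicular structure and trafficking, 26 were measured and 1 was called, Aqp8, the aquaporin of the canalicular membrane and of intracellular vesicles (chr7:130611453-130611512). Of all genes, 0.318% were called for E2 in wild types, 0.164% for the difference between the E2 effects and 0.464% for genotype under E2. The lists were chosen with earlier results of these data known. The medians of the 3 lists for E2 in wild types were 0.02, 0.00 and -0.06.

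Aqp8 rose with E2 in wild types. It read 5.69, 5.995, 6.03, 6.18 and 6.27 in wild-type E2 livers, against 4.41, 4.78, 4.96, 5.00 and 5.09 in wild-type placebo livers. The groups did not overlap, and the fitted rise was 2.27-fold (log2 1.18 ± 0.18, limma adjusted p = 0.00145). In nulls it read 4.91, 5.27, 5.28, 5.29 and 5.37 with E2, against 4.99, 5.39, 5.40, 5.64 and 6.13 with placebo, so the groups overlapped (-0.28 ± 0.18, adjusted p = 0.853).

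The E2 effects on Aqp8 differed between genotypes by 1.47 ± 0.25 (adjusted p = 0.0107), and under E2 it was lower in nulls than in wild types (-0.81 ± 0.18, adjusted p = 0.0471). Under placebo it stood higher in nulls without passing (0.66 ± 0.18, adjusted p = 0.209). Within slides the rise with E2 in wild types was 0.86, 1.26 and 1.21. Scaling on the array median or leaving out the animals numbered below 750 ended the calls of the rise (adjusted p = 0.0522 and 0.0502) and of the difference between genotypes (adjusted p = 0.0994 and 0.237), and quantile normalization ended that of the difference (adjusted p = 0.0576), with values of 0.96 to 1.27 for the rise and 1.31 to 1.60 for the difference over all settings. The cut at number 750 left smaller and unequal groups. The lower level in nulls under E2 lost its call in 25 of 34 alternatives, among them the replicate block (adjusted p = 0.0578) and the loss of any 1 of 16 arrays.

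The members also differed in how much they varied from liver to liver inside a group. The within-group SD of a member had a median of 0.186 log2 units, against 0.232 for all genes, and 3 members were among the 10% most variable genes. By brightness 14 members were in the top 10% of genes, and the SDs were not matched for brightness. Slc10a2, the bile acid importer of ileum and bile duct cells, was the most variable (SD 0.90, at the 98.2nd percentile of all genes). It read 0.01, 0.57, 2.02, 2.17 and 2.80 in null E2 livers and 1.40, 1.54, 2.08, 2.22 and 2.51 in null placebo livers, against 0.63, 0.63, 1.12, 1.38 and 2.43 in wild-type E2 livers and 0.32, 0.59, 0.89, 2.21 and 2.68 in wild-type placebo livers. Low and high livers occurred in both genotypes and both treatments, and its 2 probes, which do not overlap, moved together (r = 0.958). Cholangiocyte markers summed to 4.588 to 7.895 times the 75th percentile in null E2 livers, 5.504 to 9.043 in null placebo livers, 4.605 to 10.77 in wild-type E2 livers and 4.45 to 8.137 in wild-type placebo livers, and their part in the spread was not tested. Of 10 intestinal markers 8 were found on the array and 3 passed the filter, with Fabp6 and Fgf15 of the ileum not among the 3. Those 3 summed to 54.44 to 100 times the 75th percentile in null E2 livers and 51 to 121 in null placebo livers. In wild types they summed to 67.98 to 100.4 with E2 and 47.79 to 71 with placebo, and their part in the spread was not tested. Nr0b2 (SD 0.64) and Cyp8b1 (0.55) were the other highly variable members, followed by Cyp7a1 (0.54). The steadiest were Slc27a5 (0.11), Hsd17b4 (0.11) and Slco2b1 (0.12).

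**Figure D3:**
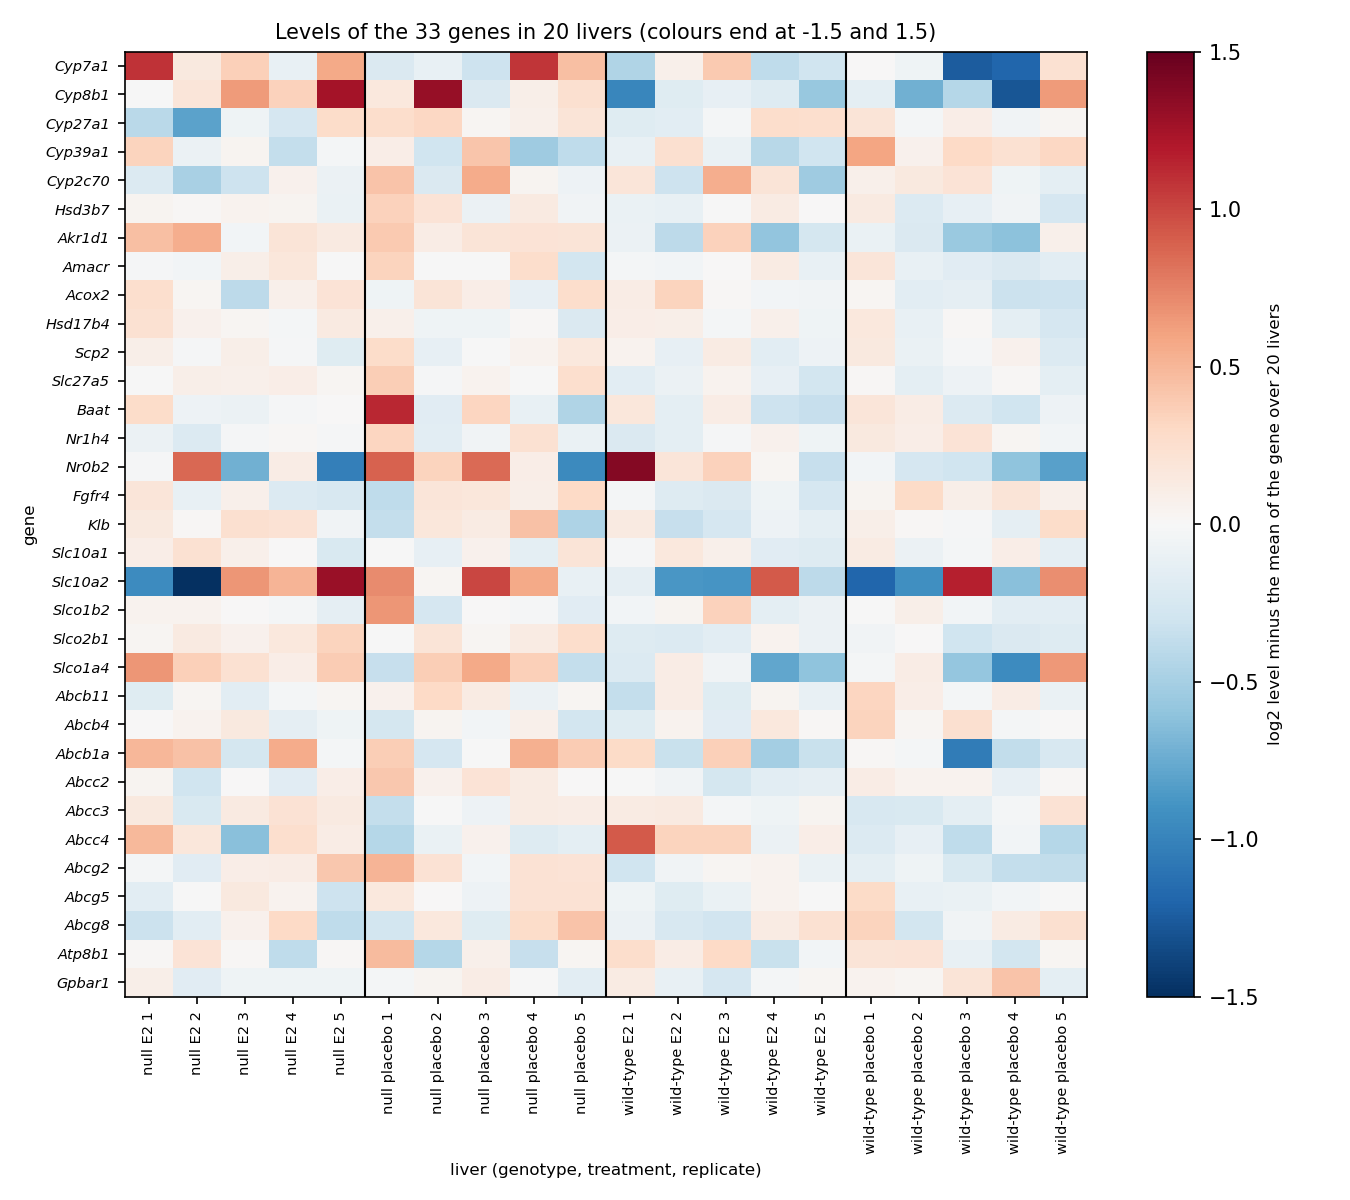
Level of each of the 33 genes (rows) in each of the 20 livers (columns, grouped by genotype and treatment) as the log2 difference from that gene's mean over all livers, with colours ending at -1.5 and 1.5. Strong colours are most frequent in Slc10a2, Nr0b2, Cyp8b1 and Cyp7a1 and fall in livers of several groups, while most genes stay pale apart from single livers. Slc10a1 is drawn by its brighter probe.

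The levels of 10 pairs of genes that the pathway links were compared across the 20 livers after each group's mean was removed. Abcg5 and Abcg8, which encode the 2 subunits of the sterol exporter of the canalicular membrane, varied together: Pearson's r was 0.720 (permutation p = 0.00198, adjusted over the 10 pairs 0.0198) and Spearman's rho 0.747 (permutation p = 0.00096, adjusted 0.0096). Leaving out the 2 livers farthest from the median of Abcg5 gave r = 0.684, and removing the slide means as well gave 0.654. Within slide 1 it was 0.380 and within slide 2 0.873, with 6 livers each, and neither passed (exact permutation, adjusted p = 0.754 and 0.111). Slides 3 and 4 held too few livers. Their genotype differences were 0.05 ± 0.07 for Abcg5 and -0.02 ± 0.11 for Abcg8.

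The 2 genes are divergent neighbours on chromosome 17 with 109 bases between their starts, and the bases between the starts are shown because they are upstream of both. The stretch is chr17:84683012-84683120 on the plus strand of GRCm38.p6, from RefSeq, and capitals mark GATAA on either strand, which appears here as TTATC.
Abcg5-Abcg8: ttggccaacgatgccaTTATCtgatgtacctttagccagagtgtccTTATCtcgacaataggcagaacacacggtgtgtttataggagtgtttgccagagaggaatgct
GATAA was found 2 times between the starts, and 25.409% of the 32851 RefSeq promoter windows of 300 bases hold it on 1 strand or the other. Of the 25 members that matched a RefSeq promoter, 15 had it in at least 1 window. These 25 members have 33 windows, so a count of genes and a share of windows are unlike measures. No share of genes was computed for the whole array, and the 2 values are not compared. An estrogen response element, searched as GGTCA and TGACC with 3 bases between them, a pattern that reads alike on both strands, was in the window of 0 of the 25 members that matched a RefSeq promoter and in 0.07% of all windows.

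The other 9 pairs did not pass (permutation p adjusted over the 10 pairs between 0.498 and 0.997 for r). Nr0b2 and its known targets went in opposite directions without passing, with r = -0.291 and rho = -0.329 for Cyp7a1 (permutation p = 0.215 and 0.168) and r = -0.383 and rho = -0.424 for Cyp8b1 (permutation p = 0.0995 and 0.074). Cyp7a1 and Cyp8b1 had r = 0.309 and rho = 0.323 (permutation p = 0.282 and 0.23). Nr1h4 and its known target Abcb11 had r = -0.081 and rho = -0.059 (permutation p = 0.759 and 0.818), and Slc10a1 and Abcb11 had r = 0.114 by the brighter Slc10a1 probe (permutation p = 0.652) and 0.118 by the other.

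**Figure D4:**
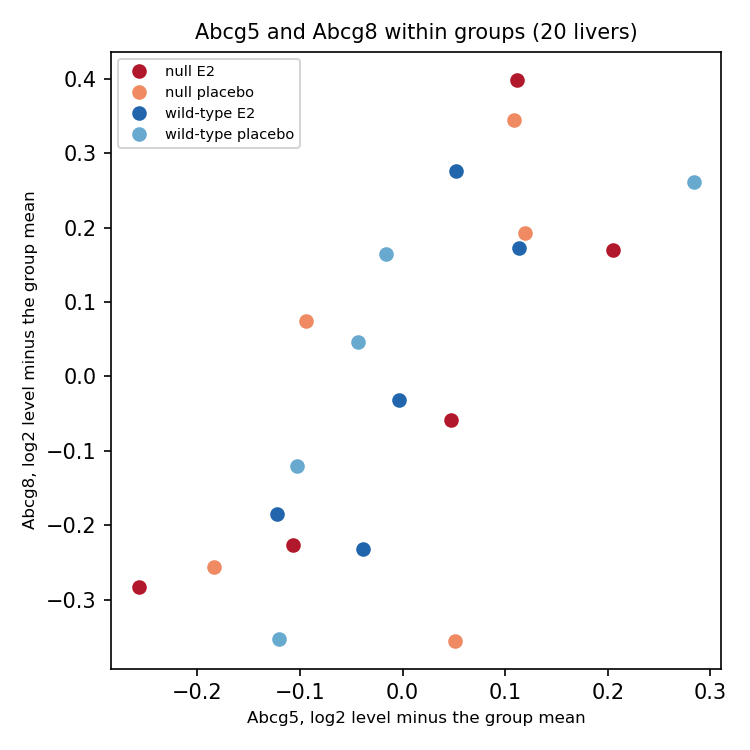
Abcg8 against Abcg5 in the 20 livers, each as log2 level minus the mean of its group, coloured by group. Livers with more Abcg5 than their group's mean tend to have more Abcg8 (r = 0.720), in all 4 groups together.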

How the data were processed

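Per the labels' protocols, total RNA from liver pieces was labelled with Cy3 for 1-colour arrays. Per the file headers, Agilent Feature Extraction 10.10.1.1 gave each spot a processed intensity beside its mean and background intensity, with probes placed on mm9. The series also comes with the authors' log2 values of 32526 probes (column medians 7.85). They followed the scanner's log2 signal (lowest r = 0.999), which settles their scale and direction, and served as an alternative. The sources used here do not name their normalization.

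The log2 processed intensity minus the array's 75th percentile over 59305 non-control spots was used. Non-uniform spots (0 to 16 per array) were left out, 0 spots were saturated, and repeated spots were averaged. Detection required a probe to be well above background on 4 or more of the 5 arrays of any group, which 30961 of 55681 probes met. The brightest such probe stood for its gene. Names came from RefSeq accessions (27235 probes), symbols (3581) or synonyms (565), and 24300 probes kept the array's name. The number of arrays limits the precision.

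A model with 4 group means over 20 arrays was fitted in limma 3.58.1 (R 4.3.3), leaving 16 residual degrees of freedom. Each of the 6 contrasts was tested on both sides and adjusted by Benjamini-Hochberg over 21998 genes, with 0.05 as threshold. Correlations used 100000 permutations within groups, and exact permutations within slides. P-values measure the spread between animals, and cage mates are not marked.

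Same-numbered replicates of different groups correlated above 0.1 in 12 of 30 pairs. Their median r was 0.086, against -0.021 for the 120 pairs of unlike numbers. The numbers were not treated as pairs in the main fit, and a replicate block was fitted as an alternative. Slides 1 and 2 held all 4 groups, slide 3 no wild-type E2 array and slide 4 no null placebo array. Members and gene lists were chosen with earlier results of these data known. Named in full were members called in a contrast, the 5 with the largest change in each, and Cyp7a1, Cyp8b1, Cyp27a1, Nr1h4, Nr0b2, Slc10a1, Abcb11, Abcb4 and Abcc2, beside Esr1, Dbp and called genes of 3 pathway lists. Alternatives changed scaling, background correction, filter, probes, blocks and the arrays included. The alternative with the other Slc10a1 probe replaced the values of Slc10a1 only, and it is counted among the alternatives of the other genes, whose differences it could not change. Leaving out an array of a group outside a contrast of 2 groups could change the estimate of the spread but not the difference. The probes' place in exons or UTRs was not analysed here.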

Additional observations from a re-analysis of the deposited data

Results flagged for a closer look

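In 7 of 136 gene and group combinations tested, 1 liver stood apart from the other 4 of its group by Dixon's criterion, and chance passes about 5%. Null E2 replicate 5 was low in Hsd3b7 (7.38, against 7.50 to 7.53 in the others), null E2 replicate 1 was high in Baat (3.28, against 2.91 to 3.01) and low in Aqp8 (4.91, against 5.27 to 5.37), and null E2 replicate 2 was low in Abcc3 (5.54, against 5.90 to 5.99). Null placebo replicate 1 was high in Slco1b2 (8.87, against 7.96 to 8.22). Wild-type placebo replicate 1 was high in Amacr (7.20, against 6.80 to 6.91) and in Abcg5 (5.53, against 5.13 to 5.23). The E2 effect on Aqp8 differed between the genotypes by the test of the difference itself, at 1.47 on the log2 scale, wild type minus null.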

How the results depend on the processing

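The count of members called stayed at 0 in every alternative for 5 contrasts, E2 in either genotype, the contrast of those effects, and genotype under each treatment. For null against wild type over both treatments, 1 member was called (Slco2b1). The count was 0 under median scaling, quantile normalization, the deposited table, no detection filter, slide as a block and only animals numbered 750 or above, and 2 (Slco2b1 and Akr1d1) under normexp and with probes well above background on all 20 arrays. Leaving out single arrays gave 0 to 3. The Slco2b1 difference lay between 0.22 and 0.32 in all settings, above 0 in each, and with the replicate block it was 0.27 (adjusted p = 0.0488). The replicate block changed no call of a member but ended that of the lower Aqp8 in nulls under E2 (-0.81, adjusted p = 0.0578), and 8 of 20 arrays correlated best with an array of their own number.

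Some changes that were not called turned their sign. For E2 in wild types, Cyp27a1 was at 0.0962 with a block for animals below 750 and 0.117 with only those from 750, and -0.076 to 0.0374 without single arrays. Cyp8b1 was at 0.0697 and 0.0925 in the same settings, 0.0447 with slide as a block, and -0.245 to 0.235 without single arrays. Slc10a1 was at 0.0598 by its other probe (an alternative chosen after seeing the data), 0.0159 as the mean of its probes, and -0.0738 to 0.0139 without single arrays. With only animals from 750, Nr0b2 under placebo was at -0.0221, and Slc10a2 at 0.594 in nulls and -0.539 for the difference of effects, which ran from -0.0381 (without null E2 replicate 2) to 0.673 without single arrays. The causes were not tested.

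Among correlations, Abcg5 with Abcg8 did not pass within slides (0.38 and 0.87, 6 livers each). Cyp7a1 with Cyp27a1 went from -0.01 to 0.37 under median scaling and 0.45 in slide 2, and Nr1h4 with Abcb11 from -0.08 to 0.76 and 0.33. In slide 1 Cyp7a1 with Cyp8b1 went from 0.31 to -0.62 and with Dbp from 0.16 to -0.25. Slc10a1 with Abcb11 went from 0.11 to -0.0919 and -0.362 in slides 1 and 2, and to 0.76 under median scaling. Klb with Fgfr4 kept its sign, with 0.26 as reported, 0.82 and 0.74 in slides 1 and 2 and 0.60 under median scaling.

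With median scaling the median of all genes was -0.22 for E2 in wild types, -0.12 for E2 in nulls and 0.11 for the genotype difference under E2, against 0.00, -0.01 and -0.00 as reported, and 5, 8 and 29 of 33 members lay above 0, and 10 for the difference between the E2 effects. Calls over all genes ranged from 32 to 90 (70 as reported) for E2 in wild types, 0 to 2 (1) in nulls, 10 to 40 (36) for the difference, 2 to 46 (16) and 35 to 120 (102) for genotype under placebo and E2, and 49 to 273 (153) for genotype over both. A fit to only the groups compared leaves nothing out of the contrasts that use all groups. Every member was well above background on all 20 arrays, and how signal bears on the calls was not tested.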
